A study of Mus musculus with 3 samples.

Results

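Cell cycle and DNA replication genes were examined in a map of GATA4 binding in the adult mouse stomach. The set held 52 genes in 7 role groups: 13 cyclins and cyclin-dependent kinases, 8 kinase inhibitors, 8 E2f factors, 3 pocket protein genes, 9 replication licensing genes, 7 genes of mitotic entry, and 4 checkpoint and p53 genes. Their peaks were all those for which the deposited annotation names a member as the nearest gene. This gave 154 of the 50869 peaks, credited to 49 of the 52 genes. Cdc25c, Chek2 and Mcm5 were credited with none.

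The chromatin came from stomach mucosa of mice that the labels give as G4fb/fb R26 Bira/Bira, aged 10 to 12 months. GATA4 in these mice carries a Flag and biotin tag, and a biotin ligase (BirA) is supplied so that tagged GATA4 and its DNA can be collected on streptavidin beads. There were 2 pull-down libraries and 1 input library of the same genotype, age and tissue. There was no pull-down from mice without the tag, and the labels do not say whether the pull-downs came from separate animals. The authors pooled both pull-downs before calling peaks, so each peak has 1 value, no replicate error and no test between samples. The mucosa was not sorted into cell types, and no expression was measured, so neither the labelled tissue nor the share of dividing cells could be checked against marker genes.

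Fold enrichment below is the deposited ratio of pull-down to input at a peak's summit, computed by the authors' peak caller. The number of pull-down tags over the summit is given with its exact Poisson 95% interval, which covers counting error in the pooled libraries only. The pooled pull-downs held 38770530 filtered tags and the input 23023152. At most members the input level was at or near the lowest the caller uses, so fold moved in steps of 1 tag. For example, 9 peaks of 8 members shared 25 tags and 5.31-fold, as did 990 peaks of the whole list.

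A cell that commits to division first raises its D-type cyclins, which activate Cdk4 and Cdk6 to phosphorylate the retinoblastoma protein and its relatives, the pocket proteins. Pocket proteins hold back the E2F transcription factors, and once released the activator E2Fs switch on cyclins E and A and the genes of DNA replication. Cdc6 and Cdt1 load the Mcm helicase at origins before S phase, and Cdk1 with cyclin B, released by the Cdc25 phosphatases and opposed by the kinase Wee1, drives mitosis. The glands of the adult stomach renew throughout life from dividing progenitors, and GATA4 is a zinc finger factor of the glandular stomach epithelium that binds a core GATA sequence.

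Promoter sequence is shown first for members whose peaks or missing peaks carry the comparisons that follow, chosen after their values were seen. E2f3 and E2f7 stand for the E2f factors, Rbl1 for the pocket proteins, and Cdk1 and Cdk7 for the kinases. Mcm7 is the gene credited with the strongest peak of the set, and that peak lies outside the window shown. Mcm6 and Mcm5 stand for licensing genes with a peak of 4.56-fold and with none. Each run is the 250 bases before a start site, 5′ to 3′ in the gene's direction, from RefSeq on GRCm38.p6. Capitals mark GATA words, which were AGATAA, its form with a final G written AGATAG, the word TGATAA, and its form with a final G written TGATAG. Capitals also mark E2F words, which were TTTCCCGC, TTTCGCGC, TTTGCCGC and TTTGGCGC. Each was searched on both strands, so that a word on the other strand reads as its reverse complement.
E2f3 (chr13:29984392-29984641, minus strand): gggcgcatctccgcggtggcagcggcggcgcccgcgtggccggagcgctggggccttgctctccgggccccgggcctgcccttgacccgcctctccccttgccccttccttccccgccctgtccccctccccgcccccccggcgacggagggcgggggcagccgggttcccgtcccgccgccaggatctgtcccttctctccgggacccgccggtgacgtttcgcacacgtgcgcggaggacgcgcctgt
E2f7 (chr10:110745189-110745438, plus strand): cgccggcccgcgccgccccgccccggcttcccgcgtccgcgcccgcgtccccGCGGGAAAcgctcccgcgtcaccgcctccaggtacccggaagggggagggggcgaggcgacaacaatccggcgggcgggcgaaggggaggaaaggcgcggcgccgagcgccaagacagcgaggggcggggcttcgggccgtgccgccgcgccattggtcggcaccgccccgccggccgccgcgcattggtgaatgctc
Rbl1 (chr2:157204535-157204784, minus strand): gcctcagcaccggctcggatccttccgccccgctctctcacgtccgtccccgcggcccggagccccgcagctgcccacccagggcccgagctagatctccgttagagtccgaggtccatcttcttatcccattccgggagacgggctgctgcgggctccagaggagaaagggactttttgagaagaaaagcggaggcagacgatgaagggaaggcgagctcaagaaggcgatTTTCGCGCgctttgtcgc
Cdk1 (chr10:69352913-69353162, minus strand): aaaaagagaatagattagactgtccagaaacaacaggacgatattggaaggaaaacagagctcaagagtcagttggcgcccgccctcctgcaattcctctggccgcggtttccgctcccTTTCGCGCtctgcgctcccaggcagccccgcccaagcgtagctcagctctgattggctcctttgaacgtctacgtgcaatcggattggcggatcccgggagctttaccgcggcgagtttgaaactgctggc
Cdk7 (chr13:100730943-100731192, minus strand): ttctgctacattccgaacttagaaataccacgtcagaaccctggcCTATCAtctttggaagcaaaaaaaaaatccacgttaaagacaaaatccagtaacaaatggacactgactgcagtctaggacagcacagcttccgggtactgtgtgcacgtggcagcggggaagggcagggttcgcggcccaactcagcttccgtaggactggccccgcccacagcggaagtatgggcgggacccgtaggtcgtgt
Mcm7 (chr5:138171884-138172133, minus strand): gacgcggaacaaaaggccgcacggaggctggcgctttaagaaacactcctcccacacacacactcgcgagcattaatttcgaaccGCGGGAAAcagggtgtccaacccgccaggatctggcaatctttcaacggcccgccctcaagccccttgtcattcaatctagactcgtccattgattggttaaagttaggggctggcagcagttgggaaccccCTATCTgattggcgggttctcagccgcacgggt
Mcm6 (chr1:128359706-128359955, minus strand): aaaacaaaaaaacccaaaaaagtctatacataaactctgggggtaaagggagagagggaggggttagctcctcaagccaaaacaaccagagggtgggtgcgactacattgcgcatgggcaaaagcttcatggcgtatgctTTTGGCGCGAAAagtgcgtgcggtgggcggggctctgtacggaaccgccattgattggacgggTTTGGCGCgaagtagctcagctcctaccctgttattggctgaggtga
Mcm5 (chr8:75109259-75109508, plus strand): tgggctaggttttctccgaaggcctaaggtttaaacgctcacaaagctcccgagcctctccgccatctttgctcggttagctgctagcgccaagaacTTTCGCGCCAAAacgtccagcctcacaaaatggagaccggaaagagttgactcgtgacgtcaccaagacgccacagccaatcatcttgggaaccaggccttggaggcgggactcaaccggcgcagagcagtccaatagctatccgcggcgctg

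A GATA word occurred in 26.5% of all 32851 promoter windows in the RefSeq table and an E2F word in 1.86%. Among the windows shown, a GATA word stood in those of Cdk7 and Mcm7, and none stood in those shown of E2f3, E2f7, Rbl1, Cdk1, Mcm6 or Mcm5. These windows were picked, so the share of them with a word is not comparable with these percentages. Outside them, the only member window with a GATA word was that of the upstream Cdkn1a start. E2F words stood in the windows shown of E2f7, Rbl1, Cdk1, Mcm7, Mcm6 and Mcm5, while the window of the other E2f3 start, not shown, held one at position -11. Of the members not shown, Cdc25a, Cdc6, Cdk2, Cdkn2a and Chek2 had a window with an E2F word. All other member windows held none, among them those of E2f1, E2f2, E2f6, E2f8, Rbl2, Mcm2, Mcm3 and Mcm10. The pairs at positions -110 and -106 of Mcm6 and -153 and -149 of Mcm5 overlap. Peak positions are mm9 distances from the start site used by the annotation, and were set beside these windows on the assumption that both builds use the same start. In the 4 member genes with 2 starts in both sources the spacing was equal to the base. On that footing the summit of the Rbl1 peak lay 129 bases before the start and that of E2f3 138 bases before it, both inside the window shown. The Cdk1 summit also lay 129 bases before the start, among the bases of the E2F word that begins at position -131. The E2f7 peak ran from position -539 to -115 and covered its E2F word at position -198. The GATA word of Cdk7, at position -205, lay outside its peak, which began at position -158. The Mcm6 peak began at position -51, with its summit 227 bases past the start, so that it covered 1 of its 3 E2F words. The table gives Mcm7 starts 617 bases apart, and the sources used here do not give which of them the annotation used. The window shown is that of the upstream start. With either start, the strongest Mcm7 peak, centred 669 bases past the start used, lay outside this window and its marked words. The window of the downstream start, not shown, held no GATA or E2F word. Only 40 of the 52 members (76.9%) had a window in the table, which is below the share needed for a count over the set. These words are therefore named by gene and not counted over the set. A match is a run of letters and not a shown binding site.

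GATA4 peaks lay close to the start sites of nearly every gene of the set, at modest fold enrichment. A peak within 10 kb of the transcription start site (TSS) was credited to 49 of 52 members (94.2%), against 64.4% of 21031 protein-coding genes. Within 1 kb there was one at 48 of 52 (92.3%), against 57.4% of protein-coding genes. The gene lost between these distances was Mcm2, whose single peak lay 5.68 kb from its TSS. At any distance the count stayed at 49 of 52, against 73.7%. The 3 genes without a credited peak therefore had none at any distance. Peaks of at least 5-fold within 10 kb were present at 38 of 52 members (73.1%), against 41.5%.

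**Figure D1:**
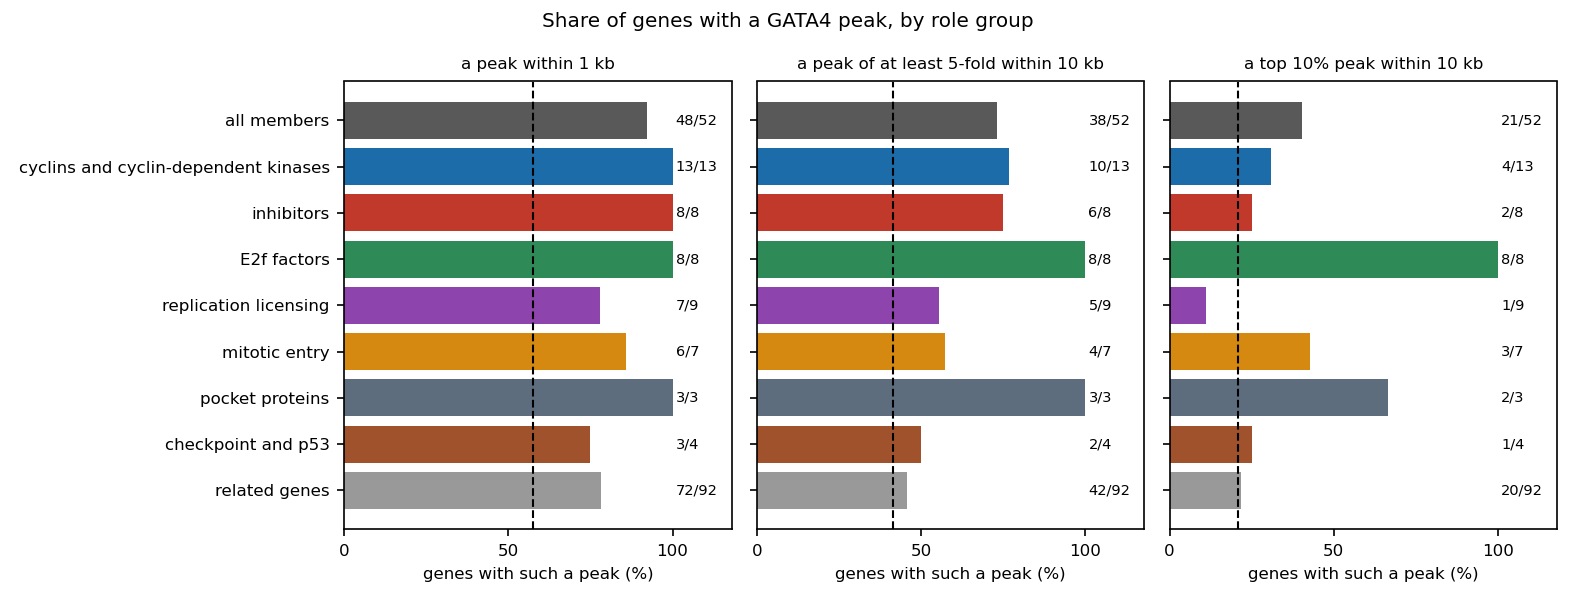
Share of genes with a GATA4 peak of each kind, in percent, for the 52 members, their 7 role groups and 92 related genes. Bars are shares, the numbers beside them are genes with such a peak over genes in the group, and dashed lines mark the share of all protein-coding genes (57.4%, 41.5% and 20.8%). All 8 E2f factors reach the top 10%, and 1 of 9 licensing genes does.

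The members differed more by role in the strength of their peaks than in having one. The 13 cyclins and kinases, 8 inhibitors, 8 E2f factors and 3 pocket protein genes each had a peak within 1 kb. So did 7 of 9 licensing genes, 6 of 7 genes of mitotic entry and 3 of 4 checkpoint genes. Within 10 kb, 21 of 52 members (40.4%) had a peak among the top 10% of the list, ranked by −log10 q-value, against 20.8% of protein-coding genes. By role these were 8 of 8 E2f factors, 2 of 3 pocket protein genes, 3 of 7 genes of mitotic entry, 4 of 13 cyclins and kinases, 2 of 8 inhibitors, 1 of 4 checkpoint genes and 1 of 9 licensing genes. Many peaks tie at the limit of 9.66, so the top 10% taken with ties held 5948 peaks (11.7% of the list). Without the tied peaks, a choice made after the data were seen, it held 17 members (32.7%, against 17.8% of protein-coding genes) and 6 of 8 E2f factors, E2f1 and E2f8 being at the limit.

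The median fold of the strongest peak within 10 kb was 5.96 over the 49 members (quartiles 5.15 and 7.26). Over the 13540 protein-coding genes with such a peak it was 5.51 (quartiles 4.56 and 6.91), so that the 2 distributions overlapped over most of their range. By role the median was 7.43 for the E2f factors, 7.10 for pocket protein genes, 6.30 for mitotic entry, 5.89 for cyclins and kinases, 5.51 for licensing genes, 5.50 for inhibitors and 5.31 for checkpoint genes. The weakest E2f factor, E2f5 at 6.73-fold, stood above the medians of the licensing, inhibitor, mitotic, checkpoint, and cyclin and kinase groups. With no replicate value, these differences between groups are descriptions and were not tested.

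**Figure D2:**
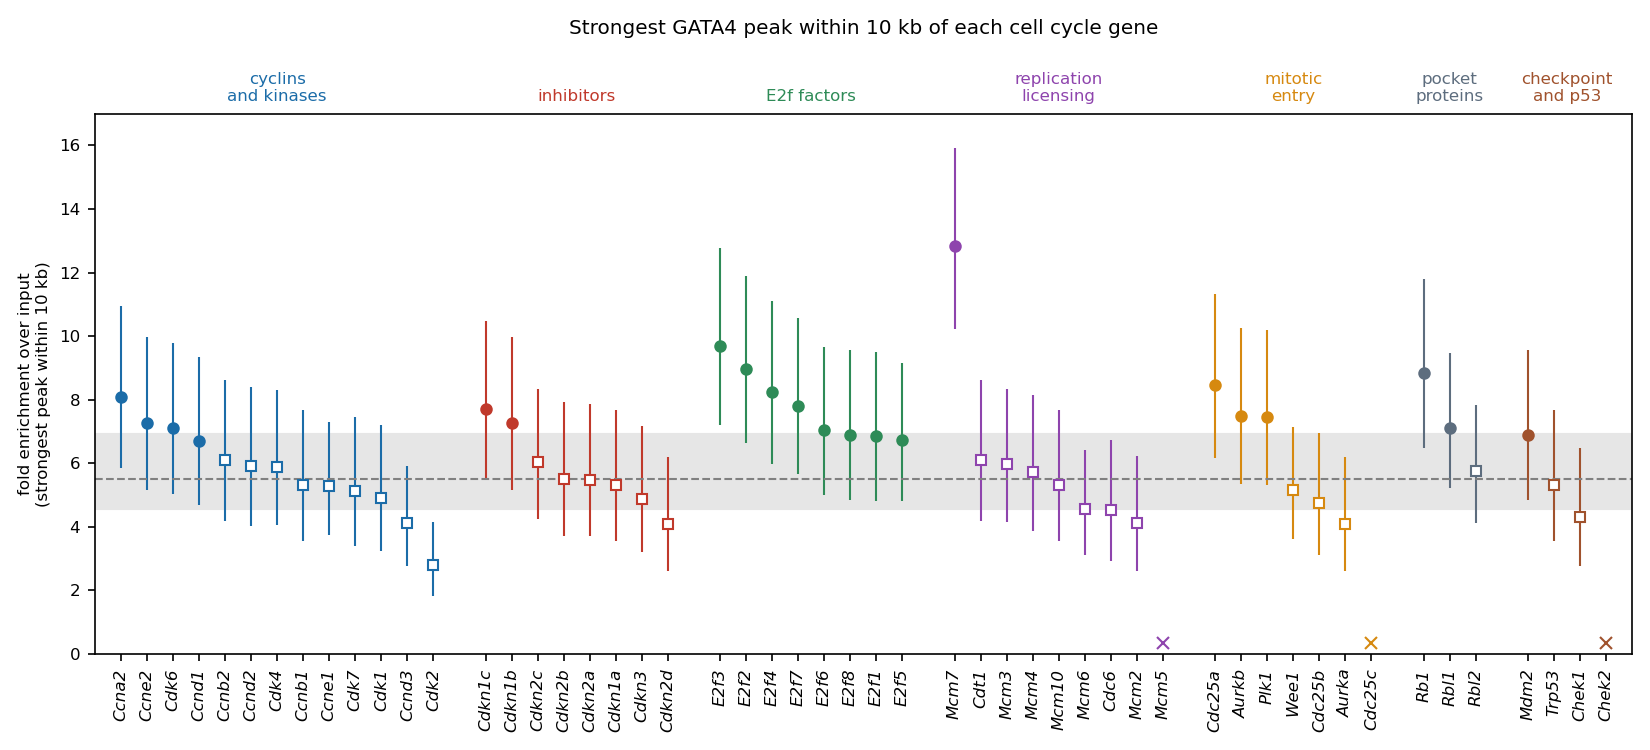
Fold enrichment over input of the strongest GATA4 peak within 10 kb of each member, by role group. Points are the deposited fold values and bars their exact Poisson 95% intervals from summit tags. The bars cover counting error of the pull-down tags only and take the input level as fixed. Mcm7 stands highest at 12.8-fold, the 8 E2f factors lie between 6.73-fold and 9.69-fold, and Cdk2 is lowest at 2.81-fold.

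The peaks of the set were also placed nearer to start sites than the list as a whole. Of the 154 peaks, 45.5% had their centre no more than 1 kb from a TSS, against 31.7% of all 50869 peaks. Another 31.2% lay 1 to 10 kb away (22.9% of all peaks) and 23.4% over 10 kb away (45.3%). The promoter class held 26.0% of the members' peaks and 16.6% of all peaks, and a CpG island was the annotated feature at 15.6% against 7.67%. Repeats were the annotated feature at 6.49% against 19.5%. The part that promoter position or CpG content has in the members' higher shares was not tested. The median fold of the members' peaks was 4.72 (median 24.5 tags), against 4.37 (22 tags) in the whole list, and 1 member peak (0.649%) reached 10-fold, against 1.04% of all peaks.

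**Figure D3:**
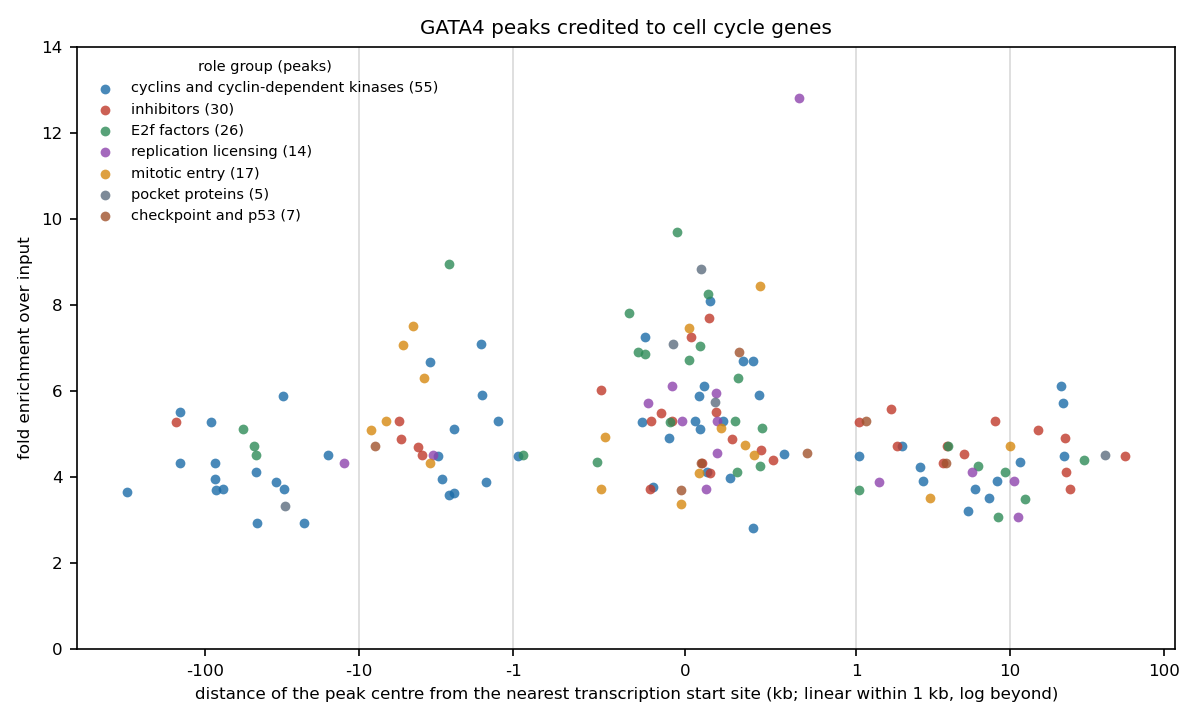
Fold enrichment of each of the 154 peaks credited to the members against its distance from the nearest TSS in kb, on an axis that is linear within 1 kb and logarithmic beyond. Points are single peaks coloured by role group, with the number of peaks per group in the legend. Most peaks over 10 kb from a TSS lie below 6-fold, and the 12.8-fold point is the peak of Mcm7.

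The 8 cyclin genes had peaks at their start sites, and Ccnd1 had by far the most peaks of the set. Ccna2, the cyclin of S phase and G2, had a single peak, 149 bp from the TSS, at 8.10-fold with 39 tags (27.7 to 53.3). Ccne2, which encodes a cyclin E of S phase entry, likewise had 1 peak, at 7.26-fold with 35 tags (24.4 to 48.7). The other cyclin E gene, Ccne1, had 6 peaks and 1 of them within 10 kb, a broad promoter peak of 1487 bp at 5.30-fold with 34 tags (23.5 to 47.5). The tag numbers of both promoter peaks were thus nearly the same, and the fold differed because the input level plus 1, by which the caller divides, was 4.0 at Ccne1 and 3.0 at Ccne2. The strongest peak credited to Ccne1 was not at its promoter but intergenic, 21.5 kb past the TSS, at 6.11-fold with 29 tags (19.4 to 41.6). It was the first of 3 neighbouring peaks at 21.5, 21.9 and 22.4 kb. The cyclin B genes, whose products carry the cell into mitosis, had peaks of 5.31-fold (Ccnb1) and 6.11-fold (Ccnb2) near the TSS.

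Ccnd1, which encodes cyclin D1, the cyclin that links growth signals to the G1 kinases, was credited with 18 peaks. As many or more were credited to 79 of the 15498 protein-coding genes with any peak (0.51%), and the median was 2 peaks for these and for the members alike. The peaks spanned 102.6 kb on chromosome 7, and 11 lay within 10 kb of the TSS. The strongest covered exon 1 (chr7:152125104-152125765, mm9) at 6.71-fold with 32 tags (21.9 to 45.2). A peak 3.49 kb upstream, at a CpG island, was nearly as strong at 6.67-fold, with 32 tags as well. Farther upstream a single peak at 31.5 kb reached 5.88-fold, and a group of 5 between 76.1 and 91.0 kb ranged from 3.70-fold to 5.28-fold. The peaks of 6.71-fold and 6.67-fold were in the top 10% of the list, at its tied limit. The stronger of them was above the members' median of 5.96-fold, though other members had higher peaks. Ccnd1 stood apart from the rest of the set in its number of peaks. How much open space around a gene adds to its number of credited peaks was not measured. The other D-type cyclins had fewer: Ccnd2 had 6 peaks, led by one of 5.91-fold 432 bp from the TSS, and Ccnd3 had 3, none above 4.11-fold. Of the 6 Ccnd2 peaks, 4 lay in the transcript 9330179D12Rik by the annotation, and another 2 peaks inside the Ccnd2 transcript were credited to 9330179D12Rik. Peaks of these 2 genes cannot be told apart by the nearest TSS.

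**Figure D4:**
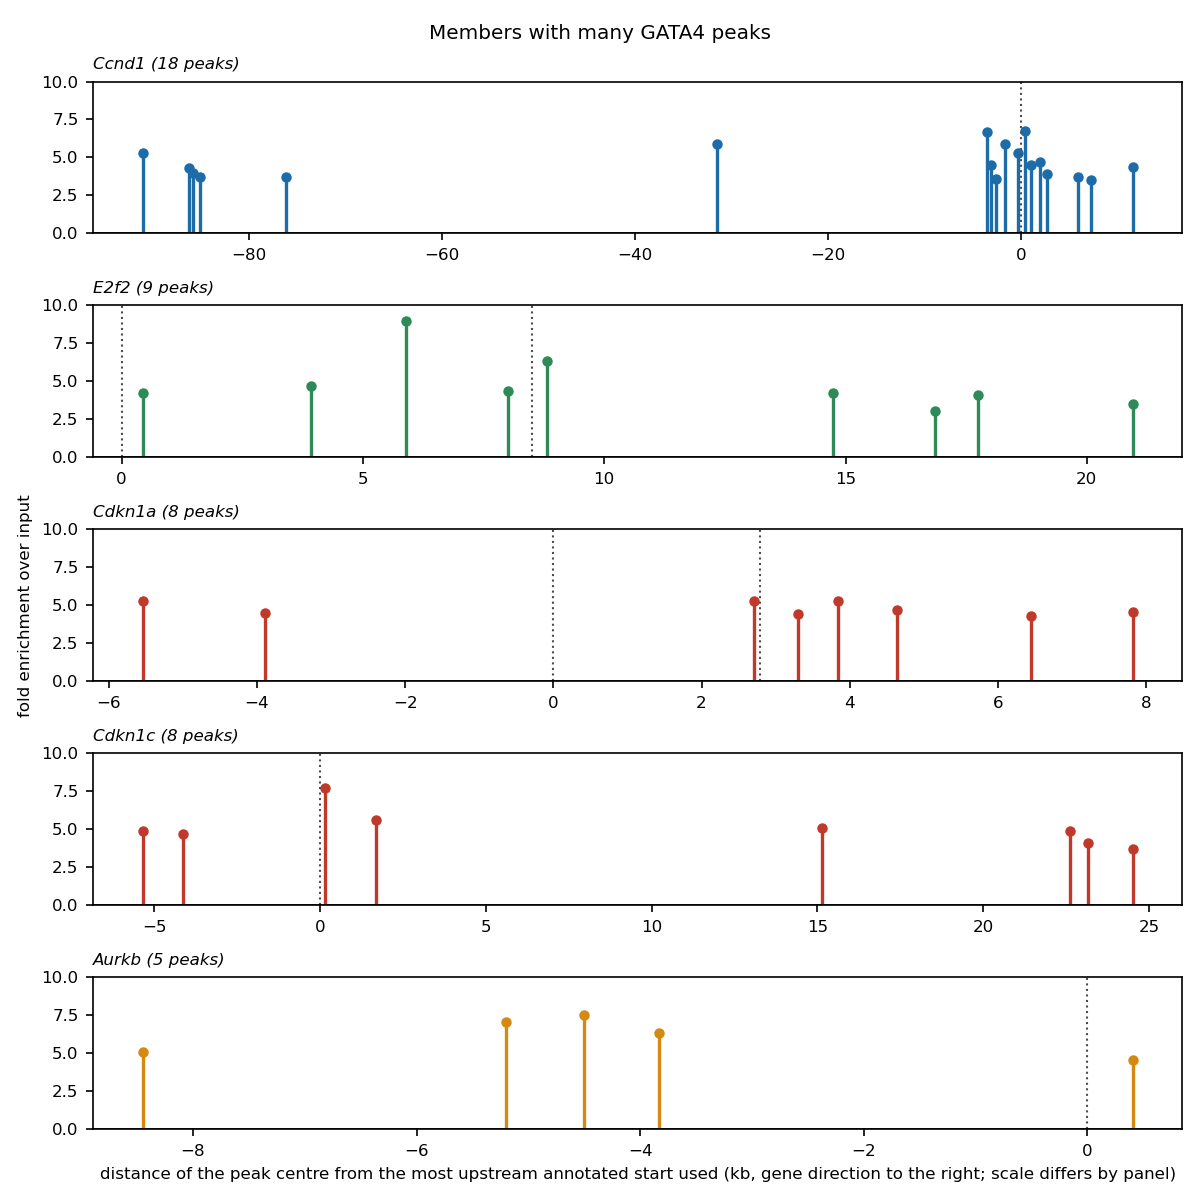
Positions and fold enrichment of the peaks credited to Ccnd1, E2f2, Cdkn1a, Cdkn1c and Aurkb, with distance in kb from the most upstream start used by the annotation and the gene's direction to the right. Each stem is 1 peak, dotted lines are annotated starts, and the distance scale differs by panel. The 18 peaks of Ccnd1 fall near its start, at -31.5 kb and between -91.0 and -76.1 kb, while the strongest peaks of Aurkb lie upstream of its start.

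Among the kinases, Cdk6 had the strongest peak and Cdk2 the weakest of the whole set. Cdk6, a partner of the D-type cyclins, had 7 peaks. Its strongest lay at a CpG island 1.63 kb upstream (chr5:3342137-3342386, mm9) at 7.11-fold with 34 tags (23.5 to 47.5), and a peak of 1205 bp over the start reached 6.71-fold with 32 tags. A second upstream peak, 2.45 kb away, held 35 tags but reached 3.63-fold, because the input level plus 1 was 6.0 there. Cdk4, the other D cyclin kinase, had 3 peaks within 10 kb, the strongest at 5.89-fold. Cdk7, which activates other cyclin-dependent kinases, reached 5.11-fold and Cdk1, the mitotic kinase, 4.92-fold with 23 tags (14.6 to 34.5). Cdk2, the kinase of cyclins E and A, had 1 peak, 401 bp past the TSS, at 2.81-fold with 22 tags (13.8 to 33.3). The input level plus 1 was 5.0 there, and the −log10 q-value was 1.88. Cdk2, Cdk1 and Ccnd3 were the 3 genes of this group with no peak of 5-fold or more.

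The 8 inhibitor genes all had peaks at their start sites, and 2 of the 3 Cip and Kip genes led them. Cdkn1c, which encodes p57, had 8 peaks, 4 of them within 10 kb. A long peak over its 5′ untranslated region (chr7:150646162-150647471, mm9) reached 7.70-fold with 37 tags (26.1 to 51.0), and 4 peaks lay 15.1 to 24.5 kb past the TSS. Cdkn1b, which encodes p27, had a single peak 38 bp from the TSS at 7.26-fold with 35 tags (24.4 to 48.7). Cdkn1a, which encodes p21, the inhibitor induced by p53, had 8 peaks, all within 10 kb, and a promoter peak at -77 bp and a peak 5.54 kb upstream, at an annotated repeat, tied as its strongest, each at 5.31-fold with 25 tags (16.2 to 36.9). None of the 8 reached the top 10%. The intervals of the strongest peaks of these 3 genes overlapped.

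The 4 Ink4 genes, whose products block Cdk4 and Cdk6, had 12 peaks together, 8 of them within 1 kb of a TSS, against 31.7% of all peaks. Cdkn2c reached 6.03-fold at a distance of -489 bp, Cdkn2b 5.51-fold and Cdkn2d 4.09-fold. Cdkn2a, which encodes p16 and p19Arf from separate starts, had promoter peaks at both. The stronger of them (chr4:88940152-88941169, mm9) reached 5.48-fold with 26 tags (17 to 38.1). Cdkn3, a phosphatase that acts on Cdk2, had 1 peak at 4.89-fold. At 5-fold or more, 6 of 8 inhibitors had a peak within 10 kb, beside 10 of 13 cyclins and kinases and 41.5% of protein-coding genes.

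All 8 E2f genes had a peak in the top 10% of the list, which was so in no other role group. E2f3, which encodes an activator of S phase genes, had the strongest promoter peak of them (chr13:30075863-30076749, mm9), at 9.69-fold with 47 tags (34.5 to 62.5), over the downstream of its 2 annotated starts. Its upstream start had a second promoter peak at 5.28-fold with 25 tags. E2f2, another activator, had 9 peaks, and its strongest was not at a start but in intron 1 of 6, 2.61 kb before a downstream start (chr4:135733902-135734269, mm9). It reached 8.96-fold with 45 tags (32.8 to 60.2). The peaks within 1 kb of the E2f2 starts reached 4.26-fold to 6.31-fold. The fold interval of the intron peak, 6.63-fold to 11.9-fold, overlapped that of the strongest of these 3 peaks and not those of the other 2. These fold intervals take the input level as exact. In tags, the interval of the peak 438 bp from a start (17.8 to 39.3) did overlap that of the intron peak. The input level plus 1 was 4.0 there and 3.09 at the intron peak. E2f1, the remaining activator, had 1 peak, 230 bp before the TSS, at 6.87-fold with 33 tags (22.7 to 46.3).

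The repressive and atypical E2f genes had peaks of 6.73-fold to 8.25-fold. E2f4, which acts mainly with pocket proteins in resting cells, reached 8.25-fold with 40 tags (28.6 to 54.5), 136 bp from its TSS. E2f5, which acts in the same way, reached 6.73-fold with 37 tags (26.1 to 51.0), and E2f6, a repressor that does not bind pocket proteins, 7.04-fold with 35 tags (24.4 to 48.7). The atypical repressors E2f7 and E2f8 reached 7.81-fold and 6.91-fold. E2f7 also had 3 peaks 47.0 to 57.1 kb upstream, each at an annotated repeat. The strongest peaks of E2f1 to E2f3 lay between 6.87-fold and 9.69-fold and those of E2f4 to E2f8 between 6.73-fold and 8.25-fold. The ranges overlapped, E2f2 and E2f3 stood above every gene of the second kind, and the difference was not tested. The intervals of the highest and the lowest E2f gene also overlapped, at 7.21-fold to 12.8-fold for E2f3 and 4.82-fold to 9.16-fold for E2f5.

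The pocket protein genes, whose products restrain the E2Fs, had a peak at each start. Rb1, which encodes the retinoblastoma protein, reached 8.84-fold with 43 tags (31.1 to 57.9), 94 bp from the TSS. Rbl1, which encodes p107, also had 43 tags at its promoter (chr2:157029847-157030829, mm9) but 7.10-fold, with an input level plus 1 of 3.74 against 3.0 at Rb1. Rbl2, which encodes p130, reached 5.74-fold with 37 tags (26.1 to 51.0). Their intervals overlapped. The remaining 2 peaks, 1 each at Rb1 and Rbl1, lay over 10 kb away.

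Replication licensing genes held both the strongest peak of the set and some of its weakest. The peak of Mcm7, a subunit of the replicative helicase, reached 12.8-fold with 79 tags (62.5 to 98.5) at chr5:138612144-138612698 (mm9). Its rank by fold was 120 among the 50869 peaks, and it was the member peak above 10-fold. Its centre lay 669 bp past the Mcm7 TSS that the annotation used, which may be either of the starts given above. The annotation places the peak in the promoter of Ap4m1. This gene encodes a subunit of the AP-4 adaptor complex and has its TSS beside that of Mcm7. The peak over the Mcm7 TSS used by the annotation (chr5:138612866-138613347) reached 5.31-fold with 25 tags (16.2 to 36.9). This interval does not overlap that of the stronger peak. A further peak in exon 11 of 15 of Mcm7, at 3.22-fold, was credited to Mir106b, a microRNA gene inside Mcm7. The fold intervals of the 12.8-fold peak and of the next strongest member peak, that of E2f3, overlapped (10.2 to 15.9 against 7.21 to 12.8).

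The other helicase subunits ranged from 5.96-fold to no credited peak. Mcm3 reached 5.96-fold, the median of the members, Mcm4 5.71-fold and Mcm6 4.56-fold, each near the TSS. The single peak of Mcm2 lay in exon 4 of 16, at 4.12-fold with 19 tags (11.4 to 29.7). Mcm5 had no credited peak, though its neighbour Hmox1, the gene of haem oxygenase, had a promoter peak of 6.87-fold with 33 tags and its other neighbour Rasd2 one of 6.31-fold. The 6 genes of this complex thus had 7 peaks in all. Cdt1, the loading factor, reached 6.11-fold at its promoter, and Mcm10, which acts when the helicase starts, 5.31-fold. Cdc6, the other loading factor, had 4 peaks, and its strongest lay 3.33 kb upstream at 4.52-fold with 21 tags (13.0 to 32.1). No licensing gene other than Mcm7 had a peak in the top 10%.

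Genes of mitotic entry ranged from strong promoter peaks to none, and Aurkb was marked upstream of its start. Cdc25a, whose phosphatase activates Cdk2 and Cdk1, had 1 peak, 440 bp from the TSS, at 8.45-fold with 41 tags (29.4 to 55.6). Plk1, a kinase of mitotic entry and spindle assembly, reached 7.46-fold 26 bp from its TSS, with 36 tags (25.2 to 49.8). Aurkb, the kinase of the chromosomal passenger complex, had 5 peaks within 10 kb. Its strongest were intergenic, at 7.50-fold 4.51 kb upstream (chr11:68854405-68854862, mm9), 7.06-fold 5.20 kb upstream and 6.31-fold 3.83 kb upstream, whereas the peak in intron 1 near its TSS reached 4.52-fold with 21 tags. The 7.06-fold peak lies on a proline tRNA gene by the annotation. The kinase gene Wee1 reached 5.15-fold, Cdc25b 4.74-fold and Aurka, the spindle pole kinase, 4.09-fold. A further peak annotated to the Aurka promoter, at 4.13-fold with 40 tags, was credited to Cstf1, whose TSS is nearer.

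Cdc25c, the remaining Cdc25 gene, had no credited peak, while peaks within 1 kb of the start sites of its neighbours reached 4.32-fold at Gfra3 and 5.07-fold at Fam53c. Of the checkpoint genes, Mdm2, which encodes the ubiquitin ligase of p53, reached 6.91-fold with 33 tags (22.7 to 46.3), 318 bp from its TSS. Trp53, the gene of p53, had 3 peaks within 10 kb, the strongest at 5.31-fold with 25 tags, 1.16 kb from its TSS. Chek1, the replication checkpoint kinase, had 1 peak at 4.32-fold with 20 tags (12.2 to 30.9). Chek2, the kinase activated by double-strand breaks, had none, but a promoter peak of 4.11-fold with 26 tags lay 20 bp from the TSS of its neighbour Hscb (chr5:111268480-111269073, mm9). Whether that peak also covers the Chek2 start was not examined, since only the distance to the nearest TSS is deposited.

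Strong peaks away from a start were few in the set. Of the 84 member peaks farther than 1 kb from a TSS, 7 (8.33%) reached 6-fold, against 6.53% of the 34727 such peaks in the list, a share near that background. They were the intron peak of E2f2, the 3 upstream peaks of Aurkb, and the peaks of Cdk6, Ccnd1 and Ccne1 described above. Of the 24 member peaks in the top 10%, 19 lay within 1 kb of a TSS, as did 4326 of the 5948 top 10% peaks of the whole list. The 10 kb limit itself fell between a 4.12-fold peak of E2f2 at 9.24 kb and a 4.72-fold peak of Plk1 at 10.0 kb, and the number of members with a peak was 49 with or without it.

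A wider set of 92 related genes was set beside the members, without a test of the difference. Within 10 kb, 73 of the 92 (79.3%, against 64.4% of protein-coding genes) had a peak, 42 (45.7%) had one of at least 5-fold and 20 (21.7%) had one in the top 10%. The last 2 shares are near those of all protein-coding genes, 41.5% and 20.8%. The median fold of their strongest peaks was 5.28 (quartiles 4.52 and 6.71), a range that overlaps that of the members. Genes of the replication origin and fork had a peak at 31 of 37, led by the polymerase alpha subunit gene Pola2 (7.77-fold), the clamp loader gene Rfc1 (7.70-fold) and Dbf4 (7.66-fold), which encodes the activator of the kinase Cdc7. The Pola2 peak lay 8.37 kb from its TSS. Orc4, Orc6, Pole, Prim1 and Rpa3 had none, and Prim2 none within 10 kb. E2F partners and G1 regulators had a peak at 14 of 20 (70%), a share near the 64.4% of protein-coding genes. They were led by the ubiquitin ligase scaffold gene Cul1 (8.65-fold), Mybl2 (7.90-fold) and Rbbp4 (7.70-fold). Mybl2 encodes a partner of the MuvB complex and Rbbp4 a histone-binding protein. Cks1b, Foxm1, Lin37, Lin52 and Skp2 had none, and Ccnb3 none within 10 kb.

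Mitosis genes had a peak at 18 of 20, with the passenger complex genes Birc5 (7.97-fold) and Incenp (7.50-fold) ahead of Anln, the anillin gene (7.06-fold), and none at Bub1 and Cenpe. Checkpoint and DNA damage genes had a peak at 10 of 15. Gadd45a, a stress response gene, reached 11.5-fold, Sesn1, which encodes a sestrin, 7.70-fold and Trp53inp1 7.25-fold. Atm, Atr, Brca1, Rad17 and Rad9a, genes of damage signalling and repair, had no credited peak at any distance. Of all protein-coding genes, 73.7% had one at any distance.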

How the data were processed

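GATA4 binding was measured by chromatin immunoprecipitation and sequencing in 2 streptavidin pull-downs and 1 input library. The submitters' processing notes name Bowtie2, MACS2, HOMER and mm9. MACS2 was version 2.1.0.20140616, per the file headers, with pooled pull-downs, a q-value limit of 0.05, 1 tag kept per position, and the larger tag set scaled down by 0.594. Each peak's deposited values are the summit pileup (a coverage signal), the fold enrichment (a ratio to input), the −log10 q-value, and the HOMER score, the −log10 q-value times 10 without its decimals. Pileup divided by the scale gave whole tags within 0.02 of a tag in all 50869 peaks. Exact Poisson 95% intervals on these tags, also converted to fold, cover counting error of the pull-down tags only, and summits are chosen as maxima. The conversion to fold took the input level as fixed. The input level plus 1 was pileup plus 1, divided by fold.

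Members were matched by gene name, and 21031 protein-coding genes with a curated transcript formed the background, matched by gene ID in a RefSeq table (GRCm38.p6). The members and lists were chosen with earlier results of these data known. Of 93 related genes listed, 92 were matched. The named genes were, per role group, up to 6 members with a top 10% peak; the 5 members with most peaks; distal peaks of at least 6-fold; genes without peaks; and the 3 strongest genes of each related list. Other members are named to account for the set. Counting code was tested on simulated data. Python 3.11.15, pandas 2.3.3, scipy 1.17.1 and matplotlib 3.10.9 were used. Other distances, thresholds and rankings were tried.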

Additional observations from a re-analysis of the deposited data

How the results depend on the processing

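No paired analysis was possible because the deposited peaks were called on both pull-downs pooled, which also left no replicate to leave out. Of 34 alternatives, 27 left a count within 1.5 times the reported one or the median unchanged. Among these, members with a peak within 10 kb fell from 49 to 39 of 52 at a −log10 q-value of at least 5. The share of protein-coding genes was 44.6% at that limit. At 5-fold or more there were 38 members, against 41.5% of protein-coding genes. The other 7 alternatives, given next, moved a count beyond 1.5 times or changed the median. Members with a peak within 1 kb numbered 31 in the promoter class alone, against 33.8% of protein-coding genes. In the top 5% there were 8 members (15.4%, against 9.21%), 4 of them E2f factors. At 5-fold or more, 5 of 9 licensing and 42 of 92 related genes had a peak within 10 kb, against the same 41.5%. At a −log10 q-value of at least 5, 46 of 92 related genes had one, against 44.6% of protein-coding genes. The members' median fold was 6.03 at any distance and 5.94 within 1 kb. Fewer peaks pass each stricter limit by construction. Depth limits precision: the quartiles of the members' summit tags were 20 and 30, and Poisson intervals at such numbers overlapped between most members.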
